A study of Mus musculus with 15 samples.

Results

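Among 15 mice whose cecal RNA was sequenced, the 7 mice with antibiotic-induced microbiome depletion (AIMD) fell into 2 clusters by the level of their circadian clock genes, and these clusters are described here gene by gene. The clusters were chosen from the measured values themselves: 3 AIMD mice, replicates 1 to 3, had a Dbp level under 3 FPKM with high Arntl, and 4 AIMD mice, replicates 4 to 7, had Dbp above 3 FPKM with low Arntl. FPKM is a read count per gene divided by the gene's length and the library's depth, so that levels of different genes can be compared. The clusters are called low-Dbp and high-Dbp mice below, because the labels give no time of sacrifice for any mouse. All 7 were C57BL/6 mice, labelled WT (wild type), and their age is given as 20 weeks. They were gavaged 2 times a day for 30 days with 4 antibiotics (neomycin, vancomycin, ampicillin and metronidazole) and the antifungal amphotericin B. Their ceca were emptied and flash frozen. The study states that the mice were males fed normal chow and housed several to a cage. Each library is 1 mouse. The other 8 mice received water and were not used. Because the low-Dbp mice carry the replicate numbers 1 to 3 and the high-Dbp mice the numbers 4 to 7, time of harvest, cage, handling and sequencing run cannot be told apart in these data.

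The circadian clock is a loop of transcription factors that runs in nearly every cell of the body, the gut included. ARNTL (also called BMAL1) pairs with CLOCK or NPAS2 and binds E-box sequences near the genes of its own repressors, the period, cryptochrome and REV-ERB families. The REV-ERB proteins (Nr1d1, Nr1d2) and the ROR proteins compete for ROR elements in Arntl, Npas2 and Nfil3. DBP, TEF and HLF, the PAR bZIP factors, activate genes through D-boxes, where NFIL3 represses. In mouse tissues Dbp and Arntl RNA peak at nearly opposite times of day.

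The sequences that these factors recognise were looked for in the 250 bases before each RefSeq start site (GRCm38.p6), on both strands, and a gene counted as holding one if any of its start sites did. The letters searched were CACGTG for the E-box, TTATGTAA for the D-box, TAGGTCA for the ROR element and the blocks GAA, NN, TTC, NN and GAA in a row, where N is any base, for the heat shock element. Of the 13 repressor and PAR bZIP genes, 11 are in the table, and 5 of them (Bhlhe41, Ciart, Cry1, Per1 and Tef) hold the E-box, 45.5%, beside 6.86% of all 27025 genes in the table and 10.2% of those expressed in these ceca. The D-box stands in Per3 alone among the 11, in 0.977% of all genes. The ROR element stands 12 bases before the Nfil3 start, in 1 of 7 genes of the activator arm, and in 2.55% of all genes. The heat shock element stands in 2 of 16 heat shock genes, Hspe1 and Hspd1, and in 0.514% of all genes. These 2 genes are neighbours on chromosome 1 and hold 2 matches each, so 1 shared site may be counted for both. The rest of the 16 hold none. A match is a string of letters, not a measured binding site. The following 4 windows are of genes that hold a match, and do not stand for the rest. Ciart and Per3 are among the clock genes with the largest differences, Cry1 goes the opposite way to the other repressors, and Hspe1 is a heat shock gene. Dbp differs more between the clusters than Ciart and Per3 but holds none of these sequences. Nr1d2 holds none either. It differs more than Ciart and Per3 on the log2 scale used below, but less by the ratio of mean FPKM (3.55, beside 5.36 and 7.12). Hsph1 differs more than Hspe1 but holds no heat shock element. Capitals mark the E-boxes of Ciart and Cry1, the D-boxes of Per3 and the overlapping pair of heat shock elements of Hspe1. They lie at chr3:95882229-95882478 (minus strand), chr10:85185055-85185304 (minus), chr4:151044666-151044915 (minus) and chr1:55087898-55088147 (plus).
Ciart: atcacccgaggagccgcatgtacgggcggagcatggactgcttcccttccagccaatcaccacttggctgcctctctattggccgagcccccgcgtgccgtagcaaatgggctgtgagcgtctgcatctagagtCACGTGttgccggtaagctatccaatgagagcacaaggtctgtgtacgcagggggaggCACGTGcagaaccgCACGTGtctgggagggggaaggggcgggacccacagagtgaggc
Cry1: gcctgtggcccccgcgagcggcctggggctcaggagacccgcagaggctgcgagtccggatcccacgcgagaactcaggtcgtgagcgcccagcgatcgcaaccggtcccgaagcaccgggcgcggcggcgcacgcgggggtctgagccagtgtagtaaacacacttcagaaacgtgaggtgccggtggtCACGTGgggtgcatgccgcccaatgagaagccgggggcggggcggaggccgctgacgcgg
Per3: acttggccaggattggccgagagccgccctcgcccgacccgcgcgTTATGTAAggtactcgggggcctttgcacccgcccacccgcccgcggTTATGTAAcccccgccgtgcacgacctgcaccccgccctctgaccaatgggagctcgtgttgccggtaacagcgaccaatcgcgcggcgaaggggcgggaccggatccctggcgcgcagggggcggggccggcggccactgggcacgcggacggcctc
Hspe1: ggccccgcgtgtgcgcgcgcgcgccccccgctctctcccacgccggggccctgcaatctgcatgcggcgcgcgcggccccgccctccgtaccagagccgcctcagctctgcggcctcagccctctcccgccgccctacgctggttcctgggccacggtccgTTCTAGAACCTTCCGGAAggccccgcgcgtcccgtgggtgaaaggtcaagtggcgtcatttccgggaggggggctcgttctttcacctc

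Depth and the makeup of the libraries were compared before the genes. The deposited FPKM values are whole multiples of what 1 read is worth, which gives 16336369, 10499097 and 18100657 reads on genes in the low-Dbp mice and 8676519, 11781027, 11239774 and 10189930 in the high-Dbp mice. The means were 14978708 ± 3978487 reads (SD, n = 3) and 10471812 ± 1367034 reads (SD, n = 4), so the low-Dbp libraries were deeper on average. A two-sided exact permutation test gave p = 0.171. With 3 mice against 4 that test can reach no less than 0.0571, so it cannot settle whether depth differed. The shallowest library, high-Dbp replicate 4, also stood apart in the makeup of its tissue: the summed FPKM of 14 smooth muscle markers was 294 there and 744 to 1025 in the other 6 mice. Mitochondrial RNA took 4.28% to 10.9% of the reads, with the highest share in replicate 7. In a principal component analysis of the 500 most variable genes the first component held 34.1% of the variance and put replicate 4 at 20.5, far from the other high-Dbp mice, which lay between -5.04 and 8.14, while the low-Dbp mice lay close together between -9.95 and -9.14. The mean distance between mice of different clusters was 1.10 times that between mice of the same cluster, and 1.19 times without replicate 4. Low-Dbp mice were 21.0 log2 units apart on average and high-Dbp mice 28.9, nearly the 29.0 between the clusters. In the genes that varied most, the clusters were thus little further apart than the mice within them.

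**Figure D1:**
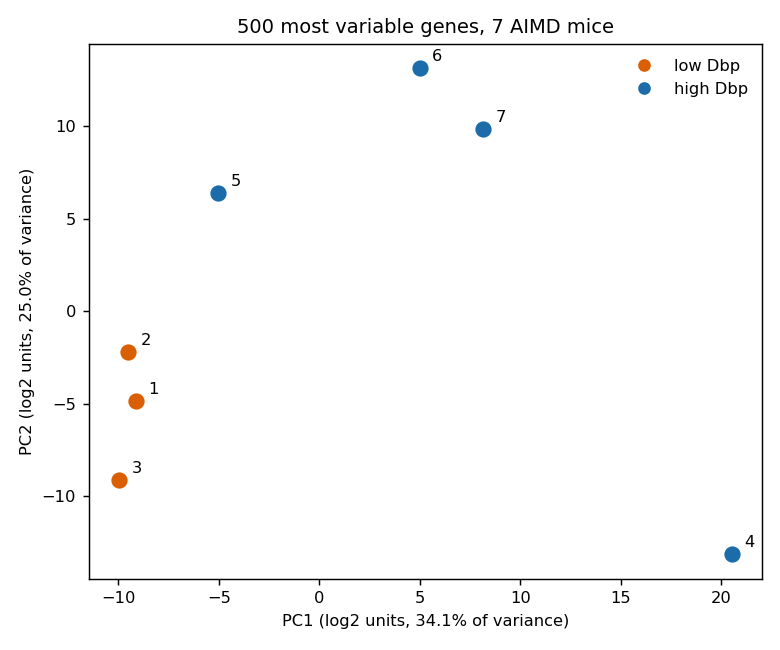
Principal components 1 and 2 (log2 units, with the share of variance) of the 500 most variable genes, 1 point per AIMD mouse labelled by its replicate number. The 3 low-Dbp mice lie together near -9 to -10 on the first component, and replicate 4 lies alone at 20.5.

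Differences below are high-Dbp minus low-Dbp means of log2(FPKM + 0.5), a scale on which the added 0.5 understates the difference of genes with low FPKM. Since Dbp and Arntl made the clusters, and every other gene was measured in the same mice, these differences are descriptions and carry no test. Values overlap, or they do not: a gene is counted as not overlapping when all 4 high-Dbp values lie above, or all 4 below, the 3 low-Dbp values. Of 10264 genes with a mean of at least 1 FPKM over the 7 mice, 1594 did not overlap (15.5%), 763 with higher values in the high-Dbp mice (7.43%) and 831 with lower values (8.1%). Only 74 genes (0.721%) also differed by at least 1 on the log2 scale, 52 higher (0.507%) and 22 lower (0.214%) in the high-Dbp mice. These percentages are the background against which the counts in each gene list stand, and the median difference of all 10264 genes was -0.036. The first count rose with any mouse left out, since the rule is easier to meet with fewer mice. It ran from 1796 to 3453, with 3453, 2456 and 3002 without replicates 1, 4 and 5. The second count depended on single mice and ran from 65 to 155, with 115, 123, 86 and 155 without replicates 1, 2, 4 and 5. Counts of a list below are out of its members that passed the filter, and the filter itself leaves out members low in both clusters. A member low in 1 cluster can pass through the other alone, which favours members that differ.

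**Figure D2:**
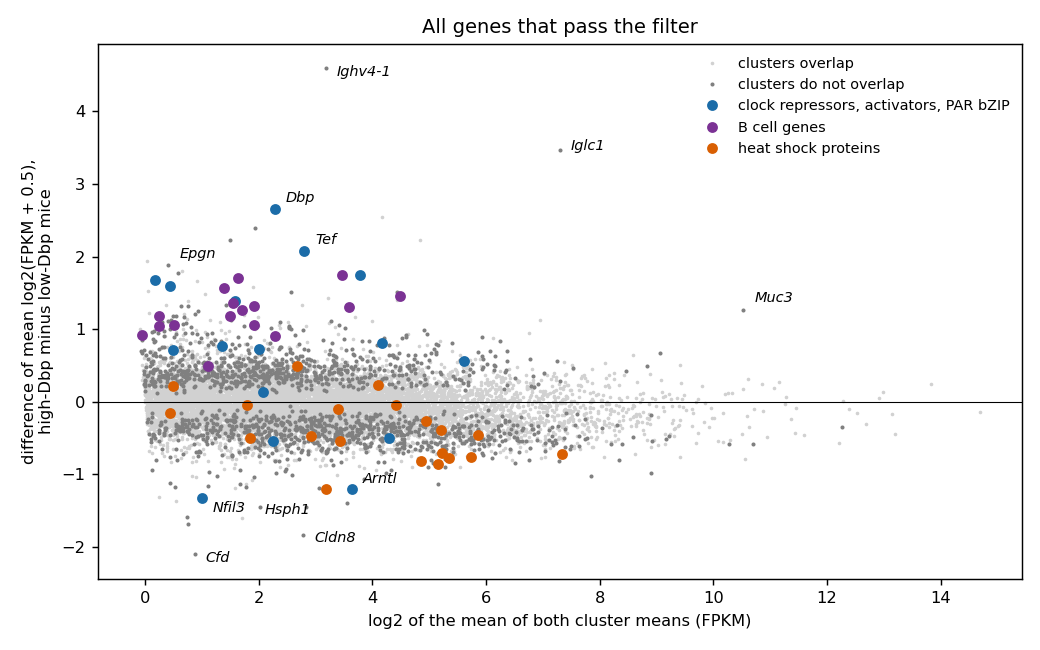
Difference of mean log2(FPKM + 0.5), high-Dbp minus low-Dbp mice, against the log2 of mean FPKM, 1 point for each of 10264 genes. Most genes lie within 1 of 0, with immunoglobulin segments highest and Cfd and Cldn8 lowest. Dbp and Tef lie far above 0, Nfil3 and Arntl more than 1 below it, B cell genes above 0 and most heat shock genes below.

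The PAR bZIP factors were higher in the high-Dbp mice, in part by construction, since Dbp set the clusters and is 1 of only 2 members past the filter. Dbp itself (chromosome 7, 45705088 to 45710203, GRCm38) had 0.797, 0.849 and 1.32 FPKM in low-Dbp replicates 1, 2 and 3 and 9.22, 7.39, 9.61 and 8.90 FPKM in high-Dbp replicates 4, 5, 6 and 7. The mice nearest the threshold of 3 FPKM were replicate 3 at 1.32 and replicate 5 at 7.39, so no mouse was near it. Tef (chromosome 15, 81802421 to 81826863) followed Dbp closely, at 2.29, 1.94 and 2.85 FPKM against 9.51, 11.0, 14.0 and 11.9 FPKM, a difference of 2.08 in log2. Hlf, the remaining member of this family, was under 1 FPKM in every mouse, at 0.274, 0.175 and 0.276 against 0.324, 0.368, 0.706 and 0.598 FPKM. All 3 were thus higher in every high-Dbp mouse. On the log2(FPKM + 0.5) scale Tef had the largest difference of any clock gene after Dbp itself. By the ratio of mean FPKM, high-Dbp over low-Dbp, Per3 (7.12) and Ciart (5.36) stood above Tef (4.92).

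Of the 10 genes of the repressor arm, all separated the clusters, 9 higher and 1 lower in the high-Dbp mice, with a median difference of 0.75 over the 10. Bhlhe41 did not pass the filter, and Per1, Per3 and Ciart passed it only through the high-Dbp mice, their low-Dbp means being under 1 FPKM. The 6 genes with both means at or above 1 FPKM had 5 higher and 1 lower, and the same median. Per2, a period protein that inhibits CLOCK and ARNTL, had 1.56, 1.28 and 1.46 FPKM in the low-Dbp mice and 4.98, 3.89, 4.59 and 4.89 in the high-Dbp mice. Per3 (chromosome 4, 151003652 to 151044665), whose window above holds 2 D-boxes, had 0.220, 0.208 and 0.400 FPKM against 2.00, 1.69, 2.00 and 2.19, a difference of 1.67, and Per1 had 0.823, 0.992 and 1.00 against 1.60, 2.24, 1.91 and 1.74, a difference of 0.72. The 3 period genes thus shared a direction, and Per3 was under 0.5 FPKM in every low-Dbp mouse. Nr1d2, which encodes REV-ERB beta, a heme-binding nuclear receptor that represses Arntl, had 6.35, 4.67 and 7.18 FPKM against 22.3, 15.7, 20.9 and 27.2, a difference of 1.74. Its partner Nr1d1 differed less, by 0.72, at 3.05, 2.52 and 3.12 against 4.61, 6.58, 5.32 and 4.15 FPKM. Ciart, a repressor that carries 3 E-boxes in the window shown, had 0.304, 0.442 and 0.536 FPKM against 2.44, 2.60, 2.09 and 2.03, a difference of 1.59. No low-Dbp mouse reached 1 FPKM for it and no high-Dbp mouse fell below 2.

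The cryptochromes went opposite ways. Cry2 had 2.19, 1.33 and 1.80 FPKM in the low-Dbp mice and 3.33, 3.50, 3.22 and 3.24 in the high-Dbp mice, with a spread among the latter of only 0.129 (SD, n = 4) around 3.32. Cry1 had 28.8, 20.5 and 19.9 FPKM against 14.9, 19.1, 15.8 and 14.6, and it was the sole repressor lower in the high-Dbp mice, with a difference of -0.49. In mouse tissues Cry1 RNA is known to peak later than the other repressors, near the peak of Arntl. The gap between the clusters was narrow for Cry1, with 19.9 FPKM in low-Dbp replicate 3 and 19.1 in high-Dbp replicate 5. Bhlhe40, a repressor that also binds E-boxes and was the most abundant repressor, had 43.8, 28.5 and 45.2 FPKM against 79.5, 51.04, 45.9 and 56.7, with replicates 3 and 6 nearly level. Bhlhe41 was under 1 FPKM throughout, at 0.140 ± 0.0294 FPKM (SD, n = 3) against 0.373 ± 0.146 (SD, n = 4).

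The activator arm was mixed, with 5 of 8 genes past the filter, 2 lower, 1 higher and 2 overlapping, and a median difference of -0.54. Without Arntl, which helped to set the clusters, the median was -0.21. Arntl (chromosome 7, 113207465 to 113314126) had 20.7, 15.4 and 16.2 FPKM in the low-Dbp mice and 6.62, 9.90, 7.42 and 5.77 in the high-Dbp mice, a difference of -1.19. Nfil3 (chromosome 13, 52967209 to 52981073), the D-box repressor that opposes DBP, had 3.05, 3.70 and 2.39 FPKM against 1.19, 1.21, 0.939 and 0.428, a difference of -1.32, so that it mirrored the PAR bZIP factors in every mouse. Its lowest value was in replicate 7, and it passed the filter only through the low-Dbp mice. Npas2, which can stand in for CLOCK, had 7.17, 3.77 and 6.50 FPKM against 4.21, 3.84, 3.30 and 3.55, a difference of -0.54 with overlap in low-Dbp replicate 2. Clock itself overlapped, at 4.81, 3.38 and 3.90 FPKM against 4.60, 3.96, 4.52 and 4.60. Rora, Rorb and Arntl2 were under 0.5 FPKM in every mouse and overlapped. Arntl, Nfil3 and Npas2 thus stood against the repressors in sign.

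**Figure D3:**
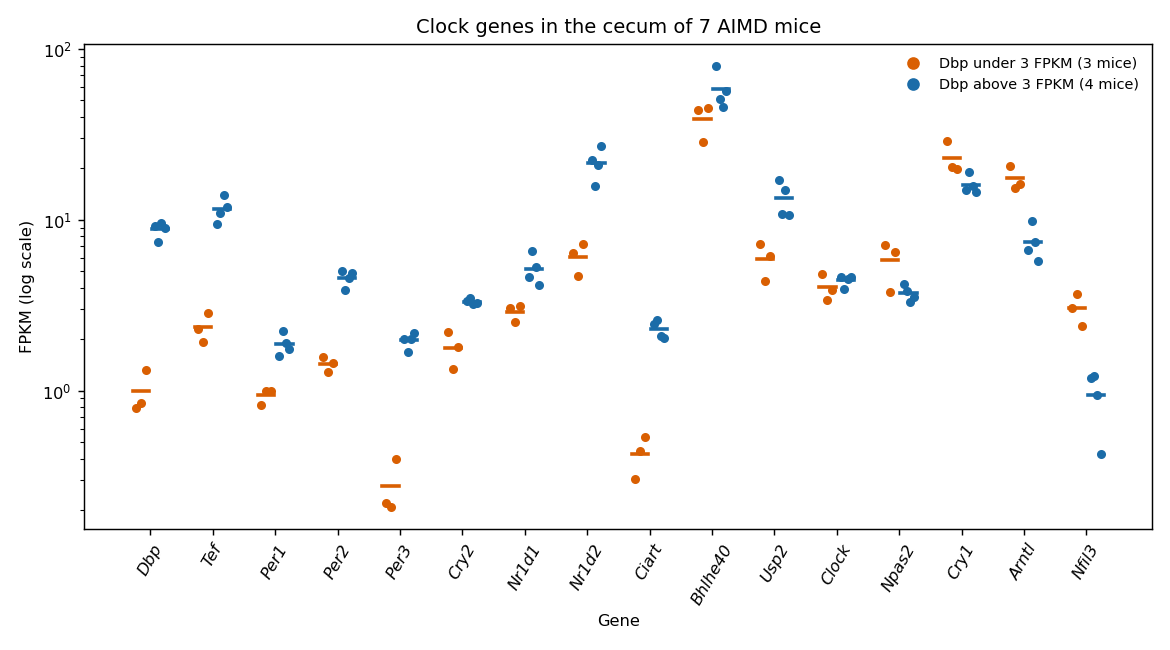
FPKM on a log axis of 16 clock genes, 1 point per mouse (3 low-Dbp and 4 high-Dbp), with a bar at each cluster mean. Dbp, Tef, Per3, Ciart and Nr1d2 stand wide apart between the clusters, Arntl, Nfil3 and Cry1 lie the other way, and Clock and Npas2 overlap.

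The enzymes that turn clock proteins over were partly higher in the high-Dbp mice. Of 8 such genes 7 passed the filter, 3 were higher without overlap and 4 overlapped, with a median difference of 0.25. Usp2, a deubiquitinase of clock proteins, had 7.23, 4.39 and 6.17 FPKM against 17.1, 10.8, 15.03 and 10.7, a difference of 1.11. Gsk3b, a kinase of several clock proteins, was higher by 0.44. The casein kinases Csnk1d and Csnk1e, which phosphorylate PER proteins, overlapped with differences of 0.078 and 0.19, as did Btrc (-0.046) and Fbxw11 (0.25), and Fbxl21 was under 0.2 FPKM throughout. In a wider list of 25 genes known to cycle in many mouse tissues, which shares members with the clock lists, 22 passed, among them Dbp and Arntl. The other 20 had 11 higher and 1 lower without overlap and a median of 0.54. With the 17 genes whose means were at or above 1 FPKM in both clusters, the median was 0.42. Fkbp5, a target of the glucocorticoid receptor, had 32.2, 22.7 and 21.2 FPKM against 41.9, 43.3, 40.5 and 35.2, a difference of 0.67, and was the 1 gene of 13 on the glucocorticoid list that did not overlap. The median of that list was 0.27, and 0.10 without replicate 4. Of 18 immediate early genes, which respond within minutes to many stimuli, only Cyr61 did not overlap, at 2.81, 3.34 and 2.43 FPKM against 3.57, 3.65, 4.79 and 6.11.

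Heat shock genes stood lower in the high-Dbp mice. All 20 on the list passed the filter, 11 were lower without overlap, none was higher without overlap, and the median difference was -0.46 (-0.55 to -0.36 with each mouse left out in turn), where 8.1% of all genes were lower without overlap. Their summed FPKM was 791, 692 and 588 in the low-Dbp mice and 427, 523, 455 and 439 in the high-Dbp mice. Hsph1 (chromosome 5, 149614287 to 149636376), a large co-chaperone of HSP70, had 19.8, 11.1 and 8.49 FPKM against 3.80, 5.72, 5.38 and 5.66, a difference of -1.20. Hsp90ab1, the constitutive HSP90, had 249.6, 199 and 156 FPKM against 91.4, 156, 126 and 115, where replicates 3 and 5 differed only beyond the digits printed. Its co-chaperones followed. Stip1 had 43.3, 37.1 and 30.6 FPKM against 18.6, 26.6, 21.3 and 17.3, and Ahsa1 had 50.7, 56.6 and 31.2 against 18.7, 30.4, 27.4 and 23.4. Fkbp4 differed by -0.76 and Chordc1 by -0.70, and the inducible Hsp90aa1 by -0.54. Hspe1 (chromosome 1, 55088132 to 55091307), the mitochondrial co-chaperonin whose window is shown above, had 44.3, 55.1 and 54.5 FPKM against 35.5, 27.9, 24.4 and 32.1, a difference of -0.77. For most of these genes the highest values were those of replicates 1 and 2, and it was without replicate 1 that the median of the list came nearest to 0. The cold-inducible Cirbp, which is known to follow body temperature inversely to heat shock genes, overlapped at 6.50, 10.1 and 12.0 FPKM against 15.4, 10.7, 9.29 and 11.2. So did Rbm3, the other cold-inducible gene listed, at 2.41, 3.92 and 2.58 FPKM against 3.09, 5.90, 6.06 and 4.99. The median of the pair was 0.47, and their summed FPKM did not overlap, at 8.92, 14.0 and 14.6 against 18.5, 16.6, 15.4 and 16.2. Rbm3 was named after its values were seen.

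The chaperones of the endoplasmic reticulum were split. Of 23 unfolded protein response genes that passed, 5 were lower and 2 higher without overlap, with a median of -0.10. Sdf2l1 had 42.3, 48.3 and 41.5 FPKM against 33.4, 29.4, 25.3 and 20.8, and Calr, the calcium-binding chaperone calreticulin, had 231, 232 and 193 against 151, 158, 141 and 109. Creld2 differed by -0.69 and Pdia6, a disulfide isomerase, by -0.57. Herpud1, a part of the degradation machinery of the same compartment, lay the other way at 49.6, 49.6 and 58.8 FPKM against 102, 65.7, 63.5 and 75.8. Sdf2l1, Calr, Creld2 and Pdia6 thus lay opposite to Herpud1. They were named because they did not overlap, while 16 of the 23 overlapped.

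Several nutrient and ion transporters stood higher in the high-Dbp mice. Of 17 sugar, peptide and amino acid transporters, 5 were higher without overlap and none lower, with a median of 0.45. Slc2a5 passed the filter only through the high-Dbp mice, and of the other 16, 4 were higher without overlap. The summed FPKM of the list overlapped, at 812, 569 and 727 against 1051, 746, 858 and 825. Slc2a5, the fructose transporter GLUT5, had 0.639, 0.686 and 1.04 FPKM against 2.54, 1.66, 2.44 and 3.04, a difference of 1.17. Slc6a6, which carries taurine, had 9.44, 6.51 and 7.68 FPKM against 13.6, 15.1, 14.4 and 15.6, a difference of 0.87. The proline carrier Slc6a20a was at 1.97, 1.89 and 1.95 FPKM against 4.26, 2.62, 5.04 and 3.37, and the large neutral amino acid carrier Slc7a5 was higher by 0.54. These 4 were named because they did not overlap and differed by at least 0.5, while 12 of the 17 overlapped. The ion and water transport list had 24 genes past the filter, 8 higher and none lower without overlap, with a median of 0.29. Its summed FPKM overlapped too, at 33503, 28266 and 32263 against 31922.5, 31180, 30542 and 24599, with the lowest sum in high-Dbp replicate 7. Scnn1b, a subunit of the epithelial sodium channel, had 3.33, 2.28 and 3.70 FPKM against 9.63, 4.18, 4.30 and 5.98, a difference of 0.80 with the largest value in replicate 4. The bicarbonate carrier Slc4a4 was higher by 0.54, and Clca4a had 505, 312 and 421 FPKM against 591, 699.9, 787 and 531.

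Genes of drug handling and of lipid transport were mixed. Of 35 xenobiotic enzymes and transporters, 2 were higher and 6 lower without overlap, with a median of -0.051. Abcb1a, the efflux pump P-glycoprotein, had 55.4, 50.7 and 57.0 FPKM against 86.6, 105, 103 and 96.4, a difference of 0.84. Slco2a1, a prostaglandin transporter, was at 8.03, 4.50 and 5.89 FPKM against 12.6, 11.8, 11.9 and 9.04. The lower genes were mostly conjugating or hydrolysing enzymes, among them Gstm3 (-0.68), Ces1g (-0.54) and Gsta4 (-0.52). Of 16 lipid uptake genes, 2 were higher without overlap, and the median was -0.014. Apob, the backbone of chylomicrons, had 30.5, 14.7 and 19.7 FPKM against 37.2, 35.2, 47.0 and 42.2, a difference of 0.94, and Apoa4 was at 2.77, 1.52 and 1.83 FPKM against 3.31, 3.65, 4.40 and 3.06. Creb3l3, a membrane-bound transcription factor of gut and liver, had 15.2, 13.9 and 18.9 FPKM against 36.0, 30.3, 27.9 and 25.6, a difference of 0.88, while the fasting and PPAR alpha list it belongs to had 2 other genes lower without overlap and a median of -0.15.

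Some genes of DNA replication stood lower in the high-Dbp mice, and those of mitosis overlapped. Of 24 G1/S genes, 7 were lower and none higher without overlap, with a median of -0.36 that was -0.16 without replicate 2. E2f2, a transcription factor of S phase entry, had 6.70, 6.30 and 6.98 FPKM against 3.32, 4.18, 3.07 and 2.22, a difference of -0.98. Fen1, the flap nuclease, had 7.84, 9.08 and 9.50 against 6.05, 6.70, 5.28 and 6.20 FPKM, and Mcm7, a subunit of the replicative helicase, had 3.52, 5.46 and 3.64 against 2.33, 3.25, 2.36 and 3.20. The summed G1/S FPKM nonetheless overlapped, at 149.5, 203 and 183 against 156, 147, 144 and 153, since replicate 1 was low. None of 27 G2/M genes separated the clusters, with a median of -0.15, and Ccna2 had 17.8, 23.2 and 22.1 FPKM against 17.9, 17.7, 19.3 and 17.4. Whether the G1/S and G2/M lists differ from each other was not tested. Among 16 inhibitors of the cycle, only Cdkn1c, which encodes p57, did not overlap, at 5.48, 5.70 and 4.58 FPKM against 13.6, 7.14, 6.11 and 10.4. Ascl2, a transcription factor of intestinal stem cells, was lower at 1.60, 2.27 and 2.12 FPKM against 0.596, 1.43, 1.09 and 0.700. It passed the filter only through the low-Dbp mice. Of 9 stem and transit cell markers that passed, 1 was lower and 1 higher without overlap, with a median of -0.042. The summed FPKM of that list was higher in every high-Dbp mouse, at 222, 164 and 202 against 284, 230, 233 and 277.

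**Figure D4:**
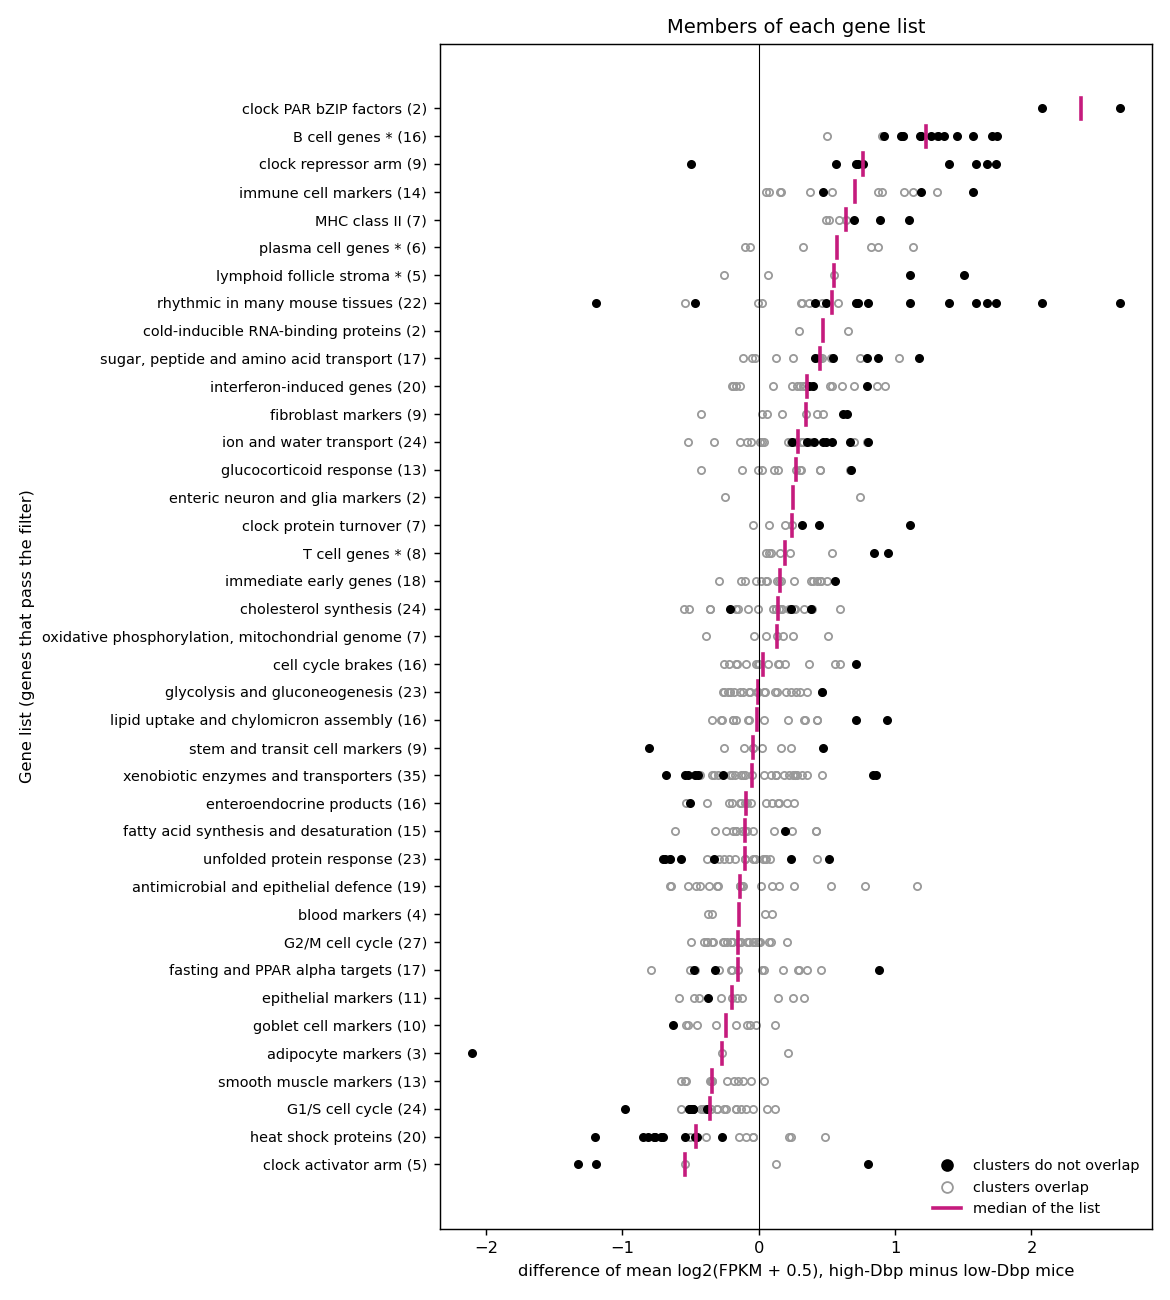
Difference of mean log2(FPKM + 0.5), high-Dbp minus low-Dbp mice, for each member of 39 gene lists that passed the filter (number in brackets). Filled points did not overlap between the clusters and bars are list medians. The B cell genes and the clock repressors lie to the right and the heat shock genes to the left, and an asterisk marks a list chosen after its values were seen.

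Several markers of lymphoid tissue were higher in the high-Dbp mice. In bulk tissue, more cells of a type and more RNA per cell cannot be told apart. Of 14 immune cell markers that passed, all had a positive difference, 3 were higher without overlap, and the median was 0.71. Ptprc, Cd3e and Ms4a1 passed only through the high-Dbp mice, and the other 11 had a median of 0.54. A list of 20 B cell genes was then drawn up after these values were seen. Of its 20 genes 16 were higher and none lower without overlap, with a median of 1.12. Of the 16 that passed the filter, Ms4a1, Cr2, Blk, Cxcr5 and Fcer2a did so only through the high-Dbp mice. The remaining 11, with both means at or above 1 FPKM, had 8 higher without overlap and a median of 1.31. Over the 16 the median was 1.22 (1.01 to 1.49 when single mice were dropped). The list was picked for its direction, so its counts describe it and support nothing. The summed FPKM of all 20 was 27.8, 62.4 and 37.4 in the low-Dbp mice and 137, 72.2, 103 and 173 in the high-Dbp mice. Ms4a1, which encodes CD20 of B cells, had 0.647, 1.495 and 0.758 FPKM against 3.80, 1.70, 3.46 and 8.07. Ighm, the heavy chain constant region of IgM, had 8.71, 17.8 and 9.16 FPKM against 34.9, 21.1, 33.7 and 41.0, a difference of 1.46, and Ighd, that of IgD on naive B cells, had 3.55, 6.27 and 3.94 against 22.6, 9.02, 12.9 and 25.8. Replicates 4 and 7 held the highest values for most of these genes, low-Dbp replicate 2 was the highest of its cluster, and high-Dbp replicate 5 was often close to it. Cd79a, Cd79b, Cd72 and Fcer2a overlapped. Pou2af1, a B cell coactivator, was at 0.758, 1.66 and 0.944 FPKM against 5.43, 2.26, 4.33 and 8.46, and the chemokine receptor Cxcr4 at 1.80, 3.50 and 2.97 against 13.1, 5.27, 6.31 and 12.0.

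The other lymphoid lists had smaller medians. The chemokine Cxcl13 (chromosome 5, 95956951 to 95961068), made by the stroma of B cell follicles, had 8.86, 13.3 and 9.02 FPKM against 33.2, 14.5, 31.8 and 52.3, a difference of 1.51, and Tnfsf11, which encodes RANKL, had 0.563, 0.634 and 0.636 against 1.77, 1.60, 1.23 and 3.53. Tnfsf11 passed the filter only through the high-Dbp mice. Ccl20 and Ccl21a overlapped, with differences of 0.069 and -0.26. Of 8 T cell genes 2 were higher without overlap, with a median of 0.19, and Cd3e had 0.877, 1.45 and 0.587 FPKM against 1.42, 0.882, 1.38 and 0.786. Cd3e and Cd2 passed the filter only through the high-Dbp mice, and of the other 6, 1 was higher without overlap. None of 6 plasma cell genes was without overlap, with a median of 0.58, while the summed FPKM of the list did not overlap, at 204, 273 and 209.8 against 451, 283, 406 and 327. Igha, of secreted IgA, had 40.4, 67.2 and 40.1 FPKM against 82.0, 89.9, 122 and 66.9. The T cell, plasma cell and follicle lists were also chosen after values were seen. Of 7 MHC class II genes 3 were higher without overlap, with a median of 0.64, and H2-Aa had 35.6, 55.4 and 36.2 FPKM against 92.9, 55.9, 80.1 and 86.2. Immunoglobulin segments gave the 2 largest differences of all genes without overlap. Ighv4-1 (chromosome 12, 113948282 to 113948796) had 0.276, 0.201 and 0 FPKM against 7.25, 11.3, 35.7 and 17.6, and Iglc1 (chromosome 16, 19061618 to 19062071) had 89.0, 18.4 and 5.69 against 109, 191, 396 and 409. Reads of such segments are shared among near-identical copies, so these values are uncertain. Left out together with the B cell genes, they lowered the count of genes that differed by at least 1 from 74 to 57, of which 35 were higher.

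**Figure D5:**
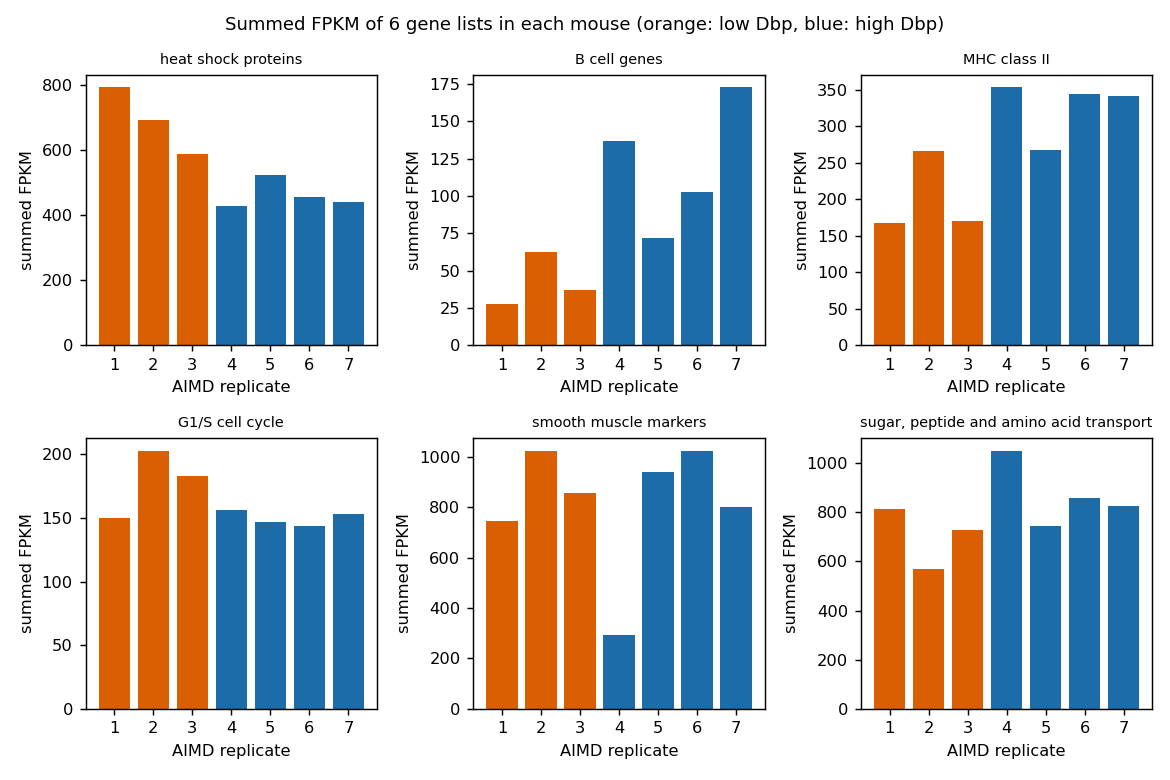
Summed FPKM of 6 gene lists in each AIMD mouse, with low-Dbp replicates 1 to 3 in orange and high-Dbp replicates 4 to 7 in blue. The heat shock sums are higher and the B cell sums lower in the low-Dbp mice without overlap, and replicate 4 stands out with a smooth muscle sum of 294.

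The marker lists of other cell types mostly overlapped. None of 13 smooth muscle markers separated the clusters, with a median of -0.34 (-0.48 to 0.074 with each mouse left out in turn) and sums of 744 to 1025 against 294 to 1025 FPKM. Of 11 epithelial markers 1 was lower without overlap, with a median of -0.19, and Lgals4, the abundant epithelial lectin, had 2816, 3220.3 and 3517 FPKM against 2637, 2837, 2296 and 1758. Of 10 goblet cell markers 1 was lower, Agr2, at 181, 255 and 174 FPKM against 97.3, 145, 164 and 123, with a list median of -0.24 that was -0.048 without replicate 3. Blood markers overlapped in all 4 members that passed. Of the pancreatic and liver markers 1 each passed, both overlapping, and Prss1, Amy2a5, Fga and Fgb were listed at 0 in all 7 mice. Of 7 fat cell markers 3 passed the filter, with a median of -0.27, 1 lower without overlap (Cfd) and 2 overlapping (Fabp4 at -0.27 and Cidec at 0.21). Cfd, adipsin, had 3.84, 6.05 and 0.457 FPKM against 0, 0.323, 0.247 and 0.282, and passed the filter only through the low-Dbp mice. Car3, a carbonic anhydrase that is not on the list, had 3.99, 3.75 and 0.993 against 0.419, 0.624, 0.478 and 0.303. In both genes replicates 1 and 2 were high and replicate 3 was much closer to the high-Dbp mice. Adipoq, the defining adipokine of fat cells, did not pass the filter and showed the same order, at 1.45, 1.63 and 0.0381 FPKM against 0, 0.0539, 0.110 and 0.0629. Plin1, which coats lipid droplets in fat cells, was listed at 0 in all 7 mice, and the summed fat cell markers overlapped at 18.2 to 27.1 against 15.8 to 22.4 FPKM. The part of attached fat in these values was not tested.

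Some of the widest gaps lay outside the lists. Cldn8 (chromosome 16, 88560828 to 88563183), a claudin of tight junctions in colon and kidney, had 12.0, 11.2 and 9.97 FPKM in the low-Dbp mice and 2.29, 2.81, 3.10 and 2.80 in the high-Dbp mice, a difference of -1.83, and its mean FPKM was 4.02 times as high in the low-Dbp mice. Tmem252 had 14.6, 7.65 and 9.73 FPKM against 1.90, 4.36, 4.61 and 3.56, and the matrix protein gene Spon2 1.59, 2.26 and 2.23 against 0.407, 0.784, 0.697 and 0.766. Sycn, which encodes syncollin of secretory granules, was at 40.7, 56.1 and 46.7 FPKM against 28.9, 33.8, 13.7 and 15.6. In the other direction, Epgn, a ligand of the EGF receptor, had 0.443, 0.184 and 0.204 FPKM against 2.86, 2.10, 1.77 and 2.79, a difference of 1.89. Muc3 (chromosome 5, 137134922 to 137149322), a membrane mucin of the brush border, had 1091, 579 and 989 FPKM against 1912, 2014, 2233 and 2109, a difference of 1.27, and was named after its values were seen. Snora41, Snord100 and Mir7688 were also lower in the high-Dbp mice, the last listed at 0 in all 4, and such short RNAs from poly-A selected libraries rest on few reads.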

How the data were processed

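RNA was prepared from emptied, flash-frozen ceca, and stranded poly-A libraries were read as 50-base single reads. The authors mapped reads to GRCm38 with STAR, counted them on GENCODE genes with featureCounts, and deposited FPKM per gene and mouse. How counts became FPKM is not given in the sources used here. The authors' own tests used DESeq2 with time of sacrifice beside treatment in the model. Of 45808 rows, 4 with a repeated symbol were left out, 27 symbols had been turned into dates, and 23004 genes were above 0 in an AIMD mouse. The 8 vehicle columns were not used.

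The clusters were set by Dbp above or under 3 FPKM. Clusters, members and gene lists were chosen with earlier results of these data known, and 4 lists (B cell, plasma cell, T cell and lymphoid follicle stroma genes) and 32 named genes after values were seen. The filter was a mean of at least 1 FPKM, and the pseudocount 0.5. Other named genes are all clock list members, members of other lists that did not overlap and differed by at least 0.5 (otherwise the most abundant member), and the 15 largest differences in each direction without overlap, leaving out predicted genes. Few of the latter are given. A small number of listed genes are not reported, though the list counts hold them. Replicates are separate mice. Reads were recovered from the steps of the FPKM values (within 0.01 of a whole read for 100.0% of genes, 67.1% at the exon length of GENCODE M21), so depth limits the precision of low genes. Alternatives were other filters, pseudocounts, scalings and thresholds, and each mouse left out. List values over members with both cluster means at or above 1 FPKM, or without Dbp and Arntl, were added after seeing the data. scipy 1.17.1, pandas 2.3.3, matplotlib 3.10.9 and numpy 2.4.6 were used under Python 3.11.15, and the methods were tested on simulated data.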

Additional observations from a re-analysis of the deposited data

Results flagged for a closer look

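Some values of single mice stood apart from the rest of their group by Dixon's criterion at the 95% level, in 7 of 260 groups. Chance meets that criterion in about 1 of 20 independent groups. These groups share the same 7 mice and are not independent, so their share cannot be read against that rate. High-Dbp replicate 4 accounted for all but 1 of the 7. Its Tagln level, a smooth muscle gene, was 95.9 FPKM, the lowest both among the 7 AIMD mice (197 to 334 in the others) and among the 4 high-Dbp mice (258 to 278). Within the high-Dbp cluster replicate 4 also had the lowest Hsph1, at 3.80 FPKM beside 5.38 to 5.72, and the lowest Thy1, at 2.98 beside 4.59 to 4.65. It had the highest Chordc1, at 33.6 FPKM beside 25.8 to 26.9, and the highest Hmgcs1, an enzyme of cholesterol synthesis, at 228 beside 142 to 151. Clock was lowest in high-Dbp replicate 5, at 3.96 FPKM beside 4.52 to 4.60. For Hsph1 and Chordc1 the values of replicate 4 were on the same side of the low-Dbp mice as those of the other high-Dbp mice.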

How the results depend on the processing

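Of 133 named genes 11 changed sign in at least 1 alternative, all of them small or overlapping differences, and no clock repressor or PAR bZIP gene did. The 1594 genes without overlap became 922 with a filter of at least 5 FPKM, where 37.7% of them were higher in the high-Dbp mice rather than 47.9%, and 1796 to 3453 with a mouse left out, the construction itself giving more with fewer mice (3453, 2456 and 3002 without replicates 1, 4 and 5). The 74 that also differed by at least 1 became 28 with that filter, 43 with a pseudocount of 1, 554 at a threshold of 0.5, and 65 to 155 with a mouse left out (115, 123 and 155 without replicates 1, 2 and 5), of which 47.8% without replicate 1 and 82.1% without replicate 2 were higher, beside 70.3%. The distance ratio was 1.03 to 1.21 with a mouse left out, an alternative added after seeing the data, as was leaving out immunoglobulin and B cell genes.

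Of 39 list medians 15 turned sign in at least 1 alternative, the largest of them in the clock activator, smooth muscle and fat cell lists: clock activator arm 0.022 with no filter; fatty acid synthesis 0.011 with the filter of 5 FPKM and -0.13 to 0.0040 with a mouse left out (0.0040 without replicate 2); fasting and PPAR alpha targets -0.17 to 0.033 (0.033 without replicate 7). With the filter of 5 FPKM the medians were 0.57 (clock repressors), -0.20 (clock activators), -0.34 (G2/M), 0.20 (stem and transit cells), 0.74 (enteric neurons and glia), 1.10 (immune cells), 0.21 (fat cells) and 0.82 (plasma cells). With no filter they were 2.08 (PAR bZIP), 0.17 (lipid uptake), -0.021 (fasting), 0.060 (xenobiotic), -0.65 (fat cells) and 0.17 (plasma cells). Means in place of medians were 0.96 (clock repressors), 0.69 (rhythmic genes) and -0.72 (fat cells). With a mouse left out they ran from 0.48 to 0.77 (rhythmic), -0.55 to -0.36 (heat shock), -0.094 to 0.066 (xenobiotic), -0.49 to -0.16 (G1/S), -0.25 to 0.0027 (G2/M), -0.17 to 0.039 (enteroendocrine), -0.35 to -0.14 (epithelial), -0.33 to -0.048 (goblet) and 0.10 to 0.63 (fibroblast). Ranges that crossed 0 also held for the antimicrobial (-0.49 to 0.051), glycolysis (-0.042 to 0.10), lipid uptake (-0.18 to 0.10), cell cycle brake (-0.031 to 0.16), stem and transit cell (-0.097 to 0.068), smooth muscle (-0.48 to 0.074), blood (-0.36 to 0.12) and mitochondrial (-0.088 to 0.34) lists. Medians also moved by over 1.5 times in clock protein turnover (0.14 to 0.34), glucocorticoid (0.10 to 0.33), cholesterol (0.018 to 0.21), interferon (0.23 to 0.49) and T cell (0.13 to 0.37) lists. The cause was not tested. No paired analysis was possible because each library is a separate mouse and the labels pair none of them.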

Other observations

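Of 20 genes of the interferon response 3 were higher and none lower in the high-Dbp mice without overlap, beside 7.43% of all genes that were higher, and 17 overlapped. Their median difference was 0.35 (0.23 to 0.49 when single mice were dropped). The summed FPKM overlapped, at 176, 212 and 188 in the low-Dbp mice and 271, 216, 309 and 146 in the high-Dbp mice, with the lowest sum of the 7 in replicate 7. Rsad2, the antiviral radical SAM enzyme viperin, had 1.47, 1.62 and 1.66 FPKM in the low-Dbp mice and 5.97, 2.22, 3.69 and 1.76 in the high-Dbp mice, with the nearest values in replicates 3 and 7. Stat2, a factor that carries the interferon signal, was higher by 0.40, at 4.46, 3.98 and 3.85 FPKM against 5.68, 5.37, 6.27 and 4.97. Antimicrobial and defence genes overlapped in all 19 that passed, with a median of -0.13 that was -0.49 without replicate 4 and 0.051 without replicate 7. Saa1, an acute phase protein of the gut epithelium, had 3138, 3328 and 3610.3 FPKM against 5939.9, 1584, 1802 and 2074, so that replicate 4 was the highest and the other high-Dbp mice the lowest of the 7. Of 9 fibroblast markers 2 were higher without overlap, the collagen genes Col1a1 at 1.75, 2.31 and 2.30 FPKM against 2.58, 3.18, 3.95 and 4.96 and Col1a2 at 4.48, 4.90 and 4.93 against 5.53, 6.48, 9.19 and 9.93. Col3a1, another collagen gene of that list, overlapped with a difference of 0.35, and the list median was 0.35, which became 0.63 without replicate 4 and 0.10 without replicate 6. Vip, a peptide of enteric neurons, overlapped at 7.20, 9.06 and 5.97 FPKM against 5.90, 11.6, 13.2 and 27.1, with the highest value in replicate 7.

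Metabolic gene lists mostly overlapped. Of 24 cholesterol synthesis genes 2 were higher and 1 lower without overlap, with a median of 0.14 that was 0.018 without replicate 4 and 0.065 without replicate 1, and Hmgcs1 had 120.3, 108 and 149.6 FPKM against 228, 142, 148 and 151. Of 23 genes of glycolysis and gluconeogenesis only the aldolase gene Aldoc did not overlap, at 3.09, 2.99 and 3.28 FPKM against 6.44, 3.61, 4.20 and 4.15, and Ldha, lactate dehydrogenase, overlapped at 759, 865 and 864 FPKM against 961, 1012, 795 and 683. Fatty acid synthesis had 1 of 15 without overlap and a median of -0.10, and Scd2, a desaturase, was at 89.4, 44.2 and 65.1 FPKM against 92.7, 91.4, 73.8 and 85.3. Of 16 enteroendocrine genes 1 was lower without overlap, Tph1, the enzyme of serotonin synthesis in enterochromaffin cells, at 1.80, 1.24 and 1.17 FPKM against 1.04, 0.809, 0.930 and 0.589. Tph1 passed the filter only through the low-Dbp mice, and the other 15 all overlapped. The 7 mitochondrial genes that passed overlapped, with mt-Co1 at 9604, 13753 and 15681 FPKM against 18516, 11999, 9892 and 23936, and 5 other mitochondrial genes were listed at 0 in all 7 mice. Stat2, Col3a1 and Aldoc fall outside the rule for named genes and were chosen after their values were seen.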
